A study of Mus musculus with 2 samples.

Results

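Expression of 9 surface glycoprotein genes of blood progenitors was described in granulocyte-monocyte progenitors, the marrow precursors of neutrophils and monocytes. The genes were Cd34, Cd164, Spn, Selplg, Cd24a, Cd44, Ptprc, Cd48 and Cd53. They were taken by gene identifier from the deposited gene tables, and all 9 were found among 43346 annotated genes. The transcript tables were read for Cd34, Cd44 and Ptprc, the members with several protein-coding transcripts on which the splicing results rest. Total RNA was sequenced in 1 group of 2 libraries, biological replicates 1 and 2, from primary cells of adult male C57BL/6J mice aged 5 to 6 weeks. No genotype change or treatment is named, and the health state is given as unknown. The labels name separate biosamples but tie both to 1 donor record, so the spread between the replicates may be partly technical. With no second group there is no contrast to test, and no p-value is given.

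Sialomucins are surface proteins whose outer part is dense in serine and threonine, the residues that carry O-linked sugars capped by sialic acid. The sugars hold the protein stretched out from the membrane, which can keep cells apart or, where the sugars are recognised by selectins or other lectins, hold them to vessel walls and stroma. CD34, endolyn (Cd164), CD43 (Spn), PSGL-1 (Selplg) and CD24 (Cd24a) belong to this kind. CD44 is the main hyaluronan receptor and CD45 (Ptprc) a receptor tyrosine phosphatase of all nucleated blood cells. Both of these gain or lose serine- and threonine-rich stretches by alternative splicing. CD48 is an immunoglobulin superfamily protein on a lipid (GPI) anchor and CD53 is a tetraspanin. Neither of these last proteins is a sialomucin, so the genes are called surface glycoproteins here.

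The stretch of 30 codons with the most serine and threonine codons is printed for each of the 5 sialomucins. It shows how dense these codons get in the annotated coding sequence, and was not checked against the outer part of the protein. The same stretch of Cd53 is printed for contrast, as the member with the fewest such codons in it. Sequences come from GENCODE M21 transcripts on GRCm38 (mm10), are written 5′ to 3′ in the reading frame of the gene, and carry serine and threonine codons in capitals. Spn lies at chr7:127136635-127136724 on the minus strand and Cd164 at chr10:41524133-41528691 on the plus strand, the latter across 3 exons. Cd34 lies at chr1:194949343-194949432 on the plus strand, Selplg at chr5:113819392-113819481 on the minus strand and Cd24a at chr10:43582655-43582744 on the plus strand. The Cd53 stretch lies at chr3:106763251-106767374 on the minus strand, across 2 exons.
Spn: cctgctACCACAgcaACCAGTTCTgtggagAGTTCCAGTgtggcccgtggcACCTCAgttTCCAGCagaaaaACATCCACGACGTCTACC
Cd164: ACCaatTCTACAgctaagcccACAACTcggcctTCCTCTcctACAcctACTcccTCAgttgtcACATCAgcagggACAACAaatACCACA
Cd34: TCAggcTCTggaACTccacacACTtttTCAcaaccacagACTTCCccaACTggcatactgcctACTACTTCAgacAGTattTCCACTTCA
Selplg: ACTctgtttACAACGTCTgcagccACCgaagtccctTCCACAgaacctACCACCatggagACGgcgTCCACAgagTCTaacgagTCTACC
Cd24a: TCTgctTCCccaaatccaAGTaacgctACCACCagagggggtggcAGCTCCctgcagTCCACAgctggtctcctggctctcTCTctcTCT
Cd53: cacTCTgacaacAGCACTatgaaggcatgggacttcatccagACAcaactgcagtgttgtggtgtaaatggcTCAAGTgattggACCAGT

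In these windows 18 of 30 codons were for serine or threonine in Spn, 16 in Cd164, 15 in Cd34, 15 in Selplg, 11 in Cd24a and 8 in Cd53. In the members not printed here, the same count in the longest coding sequence was 17 in Ptprc, 14 in Cd44 and 9 in Cd48. The median count over 20951 protein-coding genes was 9. The Cd24a window, codons 41 to 70 of 76, runs almost to the end of the coding sequence. Only 74.1% of genes had fewer such codons in theirs. Over the whole coding sequence the share was 29.4% in Spn, 26.9% in Cd164, 24.3% in Cd34 and 22.8% in Selplg, against a median of 13.2% over all genes. Spn lay above 99.9% of genes, Cd164 above 99.8%, Cd34 above 99.4% and Selplg above 99.0%. Cd44, counted with all of its variable exons, had 23.2% and lay above 99.1%. Cd24a had 18.4% in a coding sequence of only 76 codons, Cd48 17.5% and Ptprc 15.4%. Cd53, at 12.8%, was below the median. The count of codons is a description of the annotated sequence and does not show which residues carry sugar.

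**Figure D1:**
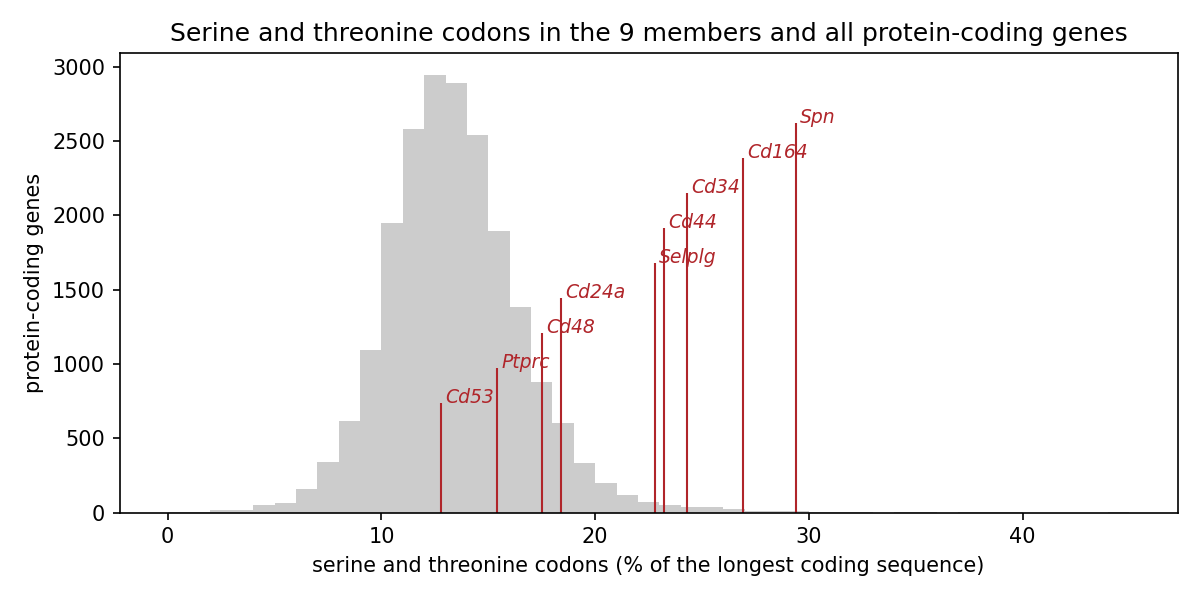
Share of serine and threonine codons (x axis, percent of the longest coding sequence in the tables) over 20951 protein-coding genes (grey bars, y axis in genes), with the 9 members as red lines whose heights only separate the names. The 5 rightmost members, from Selplg at 22.8% to Spn at 29.4%, lie in the right tail, while Cd53 at 12.8% lies below the median of 13.2%.

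The depth was 49473848 expected counts in replicate 1 and 44260902 in replicate 2. Levels are in TPM, which is corrected for transcript length and sums to the same total in every library. Nuclear protein-coding genes held 19.1% of it in replicate 1 and 22.8% in replicate 2, so levels are also given as rescaled TPM, over those genes alone. Marker lists were read beside the label. The 4 genes of surface proteins commonly used to sort these cells (Kit, Cd34, Fcgr3 and Fcgr2b) reached 1 TPM in both libraries. So did all 8 genes of granulocyte-monocyte progenitors, and 40.8% of nuclear protein-coding genes. Cd34 is itself a member. Where the sort used these surface proteins, their genes describe the gate as well as the cells. None of the 5 stem cell, 6 B cell, 8 T and NK cell, 5 erythroid, 4 stroma or 5 dendritic cell genes reached 1 TPM in both. Of the 4 megakaryocyte genes 1 did, Itga2b. Of the 6 mature neutrophil genes 5 did, summing to 27.0 and 34.3 TPM in replicates 1 and 2. All 5 monocyte and macrophage genes did too, summing to 46.0 and 54.1 TPM. These counts depend on the scale. At 1 rescaled TPM in both libraries, 1 stem cell (Procr), 1 erythroid (Gata1), 1 stroma (Pdgfrb) and 1 dendritic cell gene (Flt3) passed. So did 2 megakaryocyte and all 6 mature neutrophil genes, while the B cell and the T and NK cell lists stayed at 0.

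All 9 members were expressed at or above 10 TPM in both libraries, a level that 7.85% of all annotated genes and 14.3% of nuclear protein-coding genes reached. The median of log2(TPM + 1) over the members was 5.40 ± 0.02 (SD, n = 2). Over nuclear protein-coding genes it was 0.23 in replicate 1 and 0.26 in replicate 2, and over those at or above 1 TPM in both libraries 2.90 and 3.13. Together the members held 379 and 470 TPM, which is 0.199% and 0.206% of the TPM of nuclear protein-coding genes. Ranked by mean TPM among 21461 such genes, they ran from place 349 for Cd24a to place 2506 for Selplg. In bulk RNA a lower level from fewer cells of a type and one from less RNA per cell cannot be told apart. The labels do not state the gate used to sort the cells. Where CD34 protein was part of it, the level of Cd34 describes the gate as well as the cells.

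Cd24a, a short GPI-anchored sialomucin, had the highest level, with 74.6 TPM in replicate 1 and 96.8 in replicate 2 (85.7 TPM ± 15.7, SD, n = 2). Spn, the major sialomucin of leukocytes, followed with 70.0 and 68.5 TPM (69.2 ± 1.06). Both libraries had Cd24a above Spn with no overlap. Cd34, whose protein marks stem and progenitor cells, was at 51.5 and 61.1 TPM (56.3 ± 6.78). Cd164, whose protein is found largely in endosomes and lysosomes as well as at the surface, was at 40.6 and 39.8 TPM (40.2 ± 0.622). Selplg, the main ligand of P-selectin on myeloid cells, was the lowest member with 13.6 and 14.5 TPM (14.1 ± 0.636). Its 2 values lay below those of every other member. The spreads depend on the scale. On rescaled TPM Spn was at 367 and 300 (333 ± 47.5), Cd164 at 213 and 174 (194 ± 27.6) and Cd34 at 270 and 268 (269 ± 1.88). Cd24a was at 391 and 424 (408 ± 23.1) and Selplg at 71.4 and 63.5 (67.5 ± 5.55).

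Among the other receptors, Cd53 was at 42.7 TPM in replicate 1 and 76.2 in replicate 2 (59.4 ± 23.7, SD, n = 2), the widest spread of the 9. Ptprc was at 32.7 and 41.5 TPM (37.1 ± 6.22). Cd48, whose protein binds CD2 and CD244, was at 27.1 and 40.0 TPM (33.6 ± 9.15). Cd44 was at 25.6 and 31.7 TPM (28.7 ± 4.26). In the order of mean TPM the ranges of Cd24a and Spn, of Cd34 and Cd164, and of Cd44 and Selplg stood apart. Those of Spn and Cd53, Cd53 and Cd34, Cd164 and Ptprc, Ptprc and Cd48, and Cd48 and Cd44 overlapped over the libraries. Within each library Ptprc was above Cd48 and Cd48 above Cd44. The order of Spn and Cd53, of Cd53 and Cd34, and of Cd164 and Ptprc turned between the libraries. On rescaled TPM the same pairs overlapped except Cd48 (142 and 175) and Cd44 (135 and 139).

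A level set against Ptprc within each library does not depend on how the library total was scaled. Cd44 stood at 0.784 of the TPM of Ptprc in replicate 1 and 0.763 in replicate 2. Cd34 stood at 1.57 and 1.47 times, and Cd24a at 2.28 and 2.33 times. These ratios differed little between the libraries. Spn stood at 2.14 times in replicate 1 and 1.65 in replicate 2, and Cd53 at 1.30 and 1.83 times, both above Ptprc in each library but by unequal margins. Cd164 was above Ptprc in replicate 1, at 1.24 times, and below it in replicate 2, at 0.958.

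**Figure D2:**
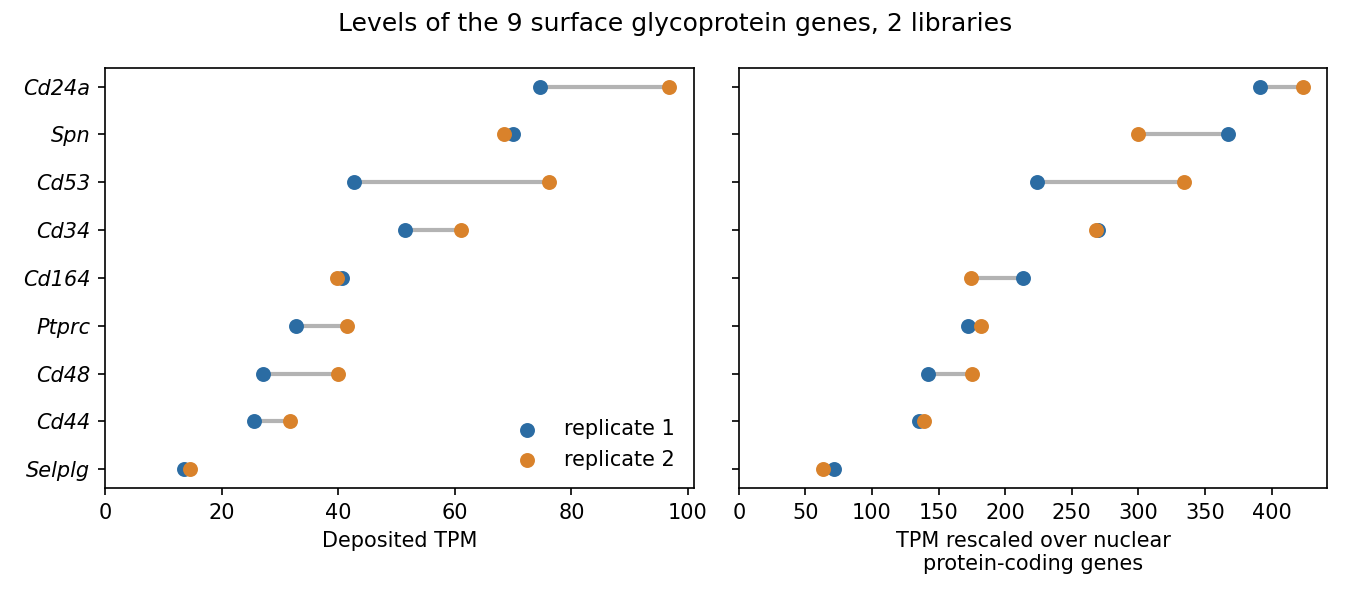
Level of each member in replicate 1 (blue) and replicate 2 (orange), as deposited TPM (left x axis) and as TPM rescaled over nuclear protein-coding genes (right x axis), with a grey line joining the 2 libraries. Cd24a is highest and Selplg lowest on both scales, and Cd53 has the longest line, from 42.7 to 76.2 TPM.

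The members lie on 6 chromosomes of GRCm38. Cd34 (chr1:194938819-194961279, plus strand), Ptprc (chr1:138062861-138175708, minus) and Cd48 (chr1:171682009-171705258, plus) share chromosome 1. Cd164 (chr10:41519414-41531048, plus) and Cd24a (chr10:43578284-43584265, plus) lie 2047 kb apart on chromosome 10. Spn is at chr7:127132232-127137823 (minus), Selplg at chr5:113818536-113832644 (minus), Cd44 at chr2:102811141-102901665 (minus) and Cd53 at chr3:106759921-106790149 (minus). For 5 members no other annotated gene overlaps. Cd34 overlaps the antisense gene Gm16897, which held 4 and 0 counts, and Cd44 overlaps the small nuclear RNA gene Gm23731 on the opposite strand, at 0 in both. Cd48 overlaps Gm37010 on its own strand, with 72 and 20 counts. Ptprc overlaps A130071D04Rik on its own strand, with 1670 and 1690 counts against 18749 and 18403 for Ptprc itself. No source used here says whether counting used strand, so reads of overlapping genes may be split uncertainly between them.

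Counts of the members were compared between the libraries. Ratios are log2 of replicate 2 over replicate 1 in CPM (counts relative to the library total, scaled by trimmed mean of M values). Cd53 was at 0.55, Cd48 at 0.26, Cd164 at 0.20, Cd24a and Ptprc at 0.09, Cd34 at 0.05, Cd44 at 0.03, Selplg at -0.18 and Spn at -0.30. None of the 9 was over 2-fold apart, against 9.48% of 12855 kept genes and 0.737% of the 4070 with a mean of at least 50 CPM. The members averaged 88.9 to 665 CPM, so the second share is the nearer background. Cd53 alone, 1 of 9, was past 0.5 in size, against 3.96% of those 4070 genes. The median of the members was 0.09, and that of all kept genes 0.00. The median size of the ratio, regardless of sign, was 0.18 over the members, 0.25 over all kept genes and 0.15 over those at 50 CPM or more. Ratios above 0 were found for 7 members, beside 49.6% of all kept genes, but for only 5 on rescaled TPM. With 1 library a side, these ratios have no replicate check.

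The ratio ran with GC content across genes, and the members lie along that slope. Cd53, at 40.0% GC, is the member with least GC, and the 264 abundant protein-coding genes within 1 percentage point of it had a median ratio of 0.18. Its own 0.55 was above 97.3% of them. Spn, at 53.2% GC, had -0.30 where 373 such genes had a median of -0.10, and lay above 10.7% of them. Cd48, at 42.0% GC, had 0.26 where the median was 0.15. Relative to genes of like GC, 4 members were above 0 and 5 below, from -0.20 for Spn to 0.37 for Cd53. The part of GC content in these ratios was not tested. The size range of the libraries, 200 to 712 in replicate 1 and 200 to 1000 in replicate 2 with no unit given, also differed and cannot be told apart from the replicate.

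**Figure D3:**
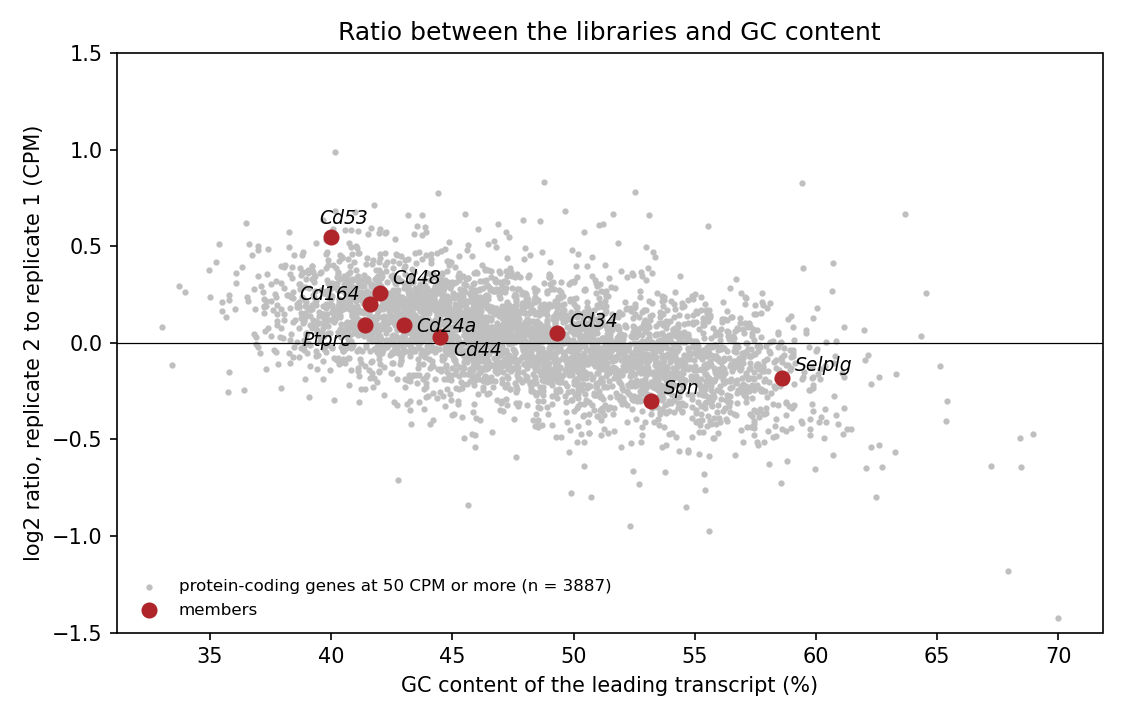
Log2 ratio of replicate 2 to replicate 1 in CPM (y axis) against the GC percent of the leading transcript (x axis) for 3887 protein-coding genes at 50 CPM or more (grey) and the 9 members (red); 1 gene lies beyond the drawn range of 1.5. Ratios fall from left to right, and Cd53 lies high at 0.55 among genes of its own GC content.

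Cd34 is known in a full-length form and a truncated form that lacks most of the cytoplasmic tail, the part that signals and is phosphorylated. The full-length Cd34-201 held 57.5% of the TPM of the gene in replicate 1 and 70.5% in replicate 2. The truncated Cd34-202 held 34.5% and 27.8%. In TPM the full-length form was at 29.6 and 43.1 and the truncated form at 17.8 and 17.0. Both libraries thus had more TPM assigned to the full-length form, by an unequal margin. The rest included Cd34-203, a nonsense-mediated decay transcript, at 6.86% in replicate 1 and 0% in replicate 2. Behind the shares stood 9721 and 10794 expected counts for the full-length form and 6086 and 4450 for the truncated form.

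The forms differ at the start of the last exon, which begins 156 bases earlier in Cd34-202 and brings a stop codon after 15 bases, stop codon included. The full-length form reads 186 bases of its last exon, and in it the 156 bases before that exon are intron. Total RNA holds unspliced RNA as well, and its part in the share of Cd34-202 was not tested. Both sequences are printed because this junction is all that separates the coding sequences. They begin with the last 30 bases of exon 7 in lower case, go on in capitals with coding bases of the last exon (the first 90 for Cd34-201, all for Cd34-202), and span chr1:194959201-194960025 and chr1:194959201-194959794 of GRCm38, plus strand, across the intron.
Cd34-201: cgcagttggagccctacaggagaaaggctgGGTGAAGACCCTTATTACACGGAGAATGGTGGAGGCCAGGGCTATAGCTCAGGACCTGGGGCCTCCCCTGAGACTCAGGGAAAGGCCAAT
Cd34-202: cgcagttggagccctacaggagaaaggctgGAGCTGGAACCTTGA

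Ptprc is spliced through 3 exons called A, B and C, here exons 4, 5 and 6 of the longest annotated transcript. They encode a mucin-like outer stretch that naive lymphocytes keep in part and that the shortest classical form, CD45RO, lacks. The form without them, Ptprc-203, held 66.8% of the TPM of Ptprc in replicate 1 and 61.6% in replicate 2, at 21.9 and 25.6 TPM. The form with all of them, Ptprc-207, held 0% and 0.120%, with 0 and 27.2 of 18749 and 18403 expected counts. A count of 0 allows up to 3 counts, for counting error only. Ptprc-204, which also skips exon 7, held 1.57% and 8.36%, and Ptprc-213, a partial transcript with exon 5 alone of the variable exons, 2.86% and 0.140%.

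Exon inclusion was computed as the TPM of transcripts that hold an exon over that of transcripts that hold or skip it. Exon 4 was included in 0% and 0.171% of this TPM, exon 5 in 4.03% and 0.377%, and exon 6 in 0% and 0.171%. Exon 7, the next serine- and threonine-rich exon, was included in 97.8% and 88.1%. Its skipping rests on Ptprc-204 alone, whose level differed between the libraries (0.510 TPM in replicate 1 and 3.47 in replicate 2). Variable exons 4 to 6 were thus nearly out and exon 7 mostly in, in both libraries. Where Ptprc-210, a retained-intron transcript that covers exons 5 and 6 and the intron between them, is counted as holding them, exon 5 comes to 8.24% and 5.13% and exon 6 to 4.39% and 4.93%. Ptprc-210 held 1.07 and 1.46 TPM. Among the 13 annotated transcripts no near full-length one holds exon 4, 5 or 6 alone, so such forms could not have been given a value of their own.

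The 4 exons are printed because they show what was skipped and what was kept. Capitals mark serine and threonine codons in frame, and codons that cross an exon edge are left in lower case. The exons lie on the minus strand of GRCm38 at chr1:138122456-138122584, chr1:138120020-138120166, chr1:138117754-138117894 and chr1:138116954-138117025.
Ptprc exon 4: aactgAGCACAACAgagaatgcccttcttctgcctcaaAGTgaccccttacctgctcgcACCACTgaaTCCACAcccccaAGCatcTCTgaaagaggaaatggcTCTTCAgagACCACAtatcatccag
Ptprc exon 5: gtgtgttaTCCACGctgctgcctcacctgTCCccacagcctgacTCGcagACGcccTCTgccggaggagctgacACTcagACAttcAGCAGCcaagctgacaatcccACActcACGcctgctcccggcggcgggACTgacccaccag
Ptprc exon 6: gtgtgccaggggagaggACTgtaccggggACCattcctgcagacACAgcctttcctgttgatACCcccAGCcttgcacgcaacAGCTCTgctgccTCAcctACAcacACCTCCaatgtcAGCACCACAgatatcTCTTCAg
Ptprc exon 7: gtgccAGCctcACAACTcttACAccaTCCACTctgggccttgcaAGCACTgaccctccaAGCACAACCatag

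Serine and threonine made up 14 of the 42 whole codons of exon 4, 13 of 48 in exon 5, 16 of 46 in exon 6 and 11 of 23 in exon 7. The densest 30 codons of the longest form held 17 and cross from exon 6 into exon 7. That stretch is therefore split in Ptprc-203, which keeps only its exon 7 end.

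**Figure D4:**
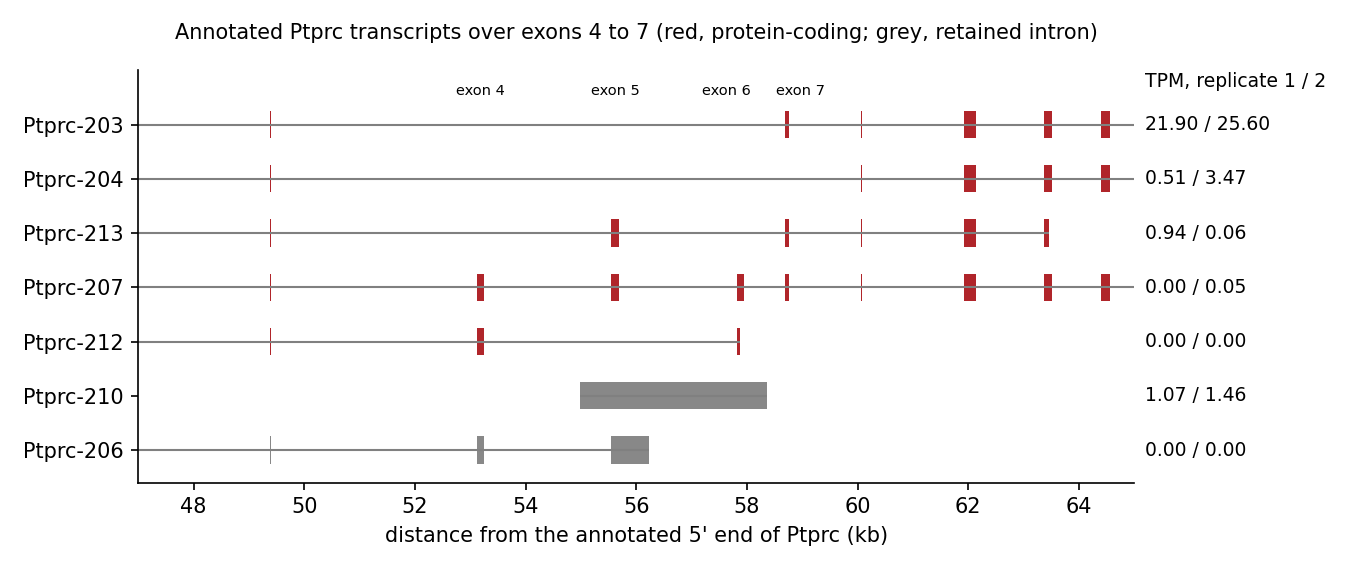
Annotated Ptprc transcripts that span or touch exons 4 to 7, by distance in kb from the annotated 5′ end of the gene (x axis), with exons as boxes (red for protein-coding, grey for retained-intron transcripts) and the TPM in replicates 1 and 2 at the right. Ptprc-203, at 21.9 and 25.6 TPM, has no box at exons 4 to 6, and Ptprc-207, which has all of them, is at 0 and 0.0500 TPM.

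Retained-intron transcripts held 28.8% and 29.7% of the TPM of Ptprc. The median over 1529 protein-coding genes at or above 10 TPM that have such a transcript was 6.80% in replicate 1 and 6.99% in replicate 2, and Ptprc lay above 83.0% of them. Ptprc-208, at 9.02% and 12.6%, and Ptprc-209, at 8.56% and 2.85%, had the highest shares on the mean of the libraries. In replicate 2 Ptprc-202, at 4.15%, and Ptprc-210, at 3.53%, were above Ptprc-209. The share was 14.5% and 16.3% in Cd44, 5.17% and 3.77% in Cd164 and 1.16% and 1.62% in Cd34. Total RNA holds unspliced RNA as well as messenger RNA, and the part of unspliced RNA in these shares was not tested.

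Cd44 has 10 variable exons, here exons 6 to 15, between the constant exons of the standard form. They lengthen the stalk between the hyaluronan-binding head and the membrane. The standard form Cd44-203, which has none of them, held 41.8% and 39.3% of the TPM of Cd44, at 10.7 and 12.4 TPM. Cd44-207, which has exons 10, 11, 13, 14 and 15, held 41.4% and 43.5%, at 10.6 and 13.8 TPM. The pair was nearly equal in replicate 1, and Cd44-207 was the higher in replicate 2. Cd44-201, with all 10 exons, held 1.91% and 0.370%, the retained-intron transcript Cd44-209 held 14.4% and 16.3%, and 4 of the 9 transcripts were at 0 counts in both libraries.

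Inclusion of exons 10, 11, 13 and 14 came to 50.6% and 52.4%, that of exon 15 to 51.2% and 53.1%, and that of exons 6 to 9 and 12 to 2.23% and 0.452%. These values carry a limit. Cd44-207 differs from Cd44-203 by 636 bases of variable exons, but also by 1406 bases of a longer last exon and by 155 bases of the first. The tables give counts per transcript and not per exon, so which stretch drew the 7447 and 7441 expected counts of Cd44-207 cannot be told apart. The 5 annotated transcripts that join variable exons to the shorter last exon summed to 0.130 and 0.180 TPM, and 4 of them were at 0. None of the 5 has the exon set of Cd44-207, so their sum cannot show whether that set is joined to the shorter last exon. The inclusion of the variable exons is therefore that of the transcript to which the counts were assigned.

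Exons 12 and 13 of Cd44 are printed as neighbours of which Cd44-207 skips the first and holds the second. They lie on the minus strand of GRCm38 at chr2:102837813-102837938 and chr2:102834234-102834335, with serine and threonine codons in capitals.
Cd44 exon 12: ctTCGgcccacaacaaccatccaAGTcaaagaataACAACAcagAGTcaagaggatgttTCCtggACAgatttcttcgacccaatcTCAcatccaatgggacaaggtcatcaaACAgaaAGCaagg
Cd44 exon 13: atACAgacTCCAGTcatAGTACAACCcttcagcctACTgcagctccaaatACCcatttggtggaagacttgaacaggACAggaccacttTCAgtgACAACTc

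Exon 13 had 12 serine or threonine codons among 33 whole codons and exon 12 had 10 among 41.

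**Figure D5:**
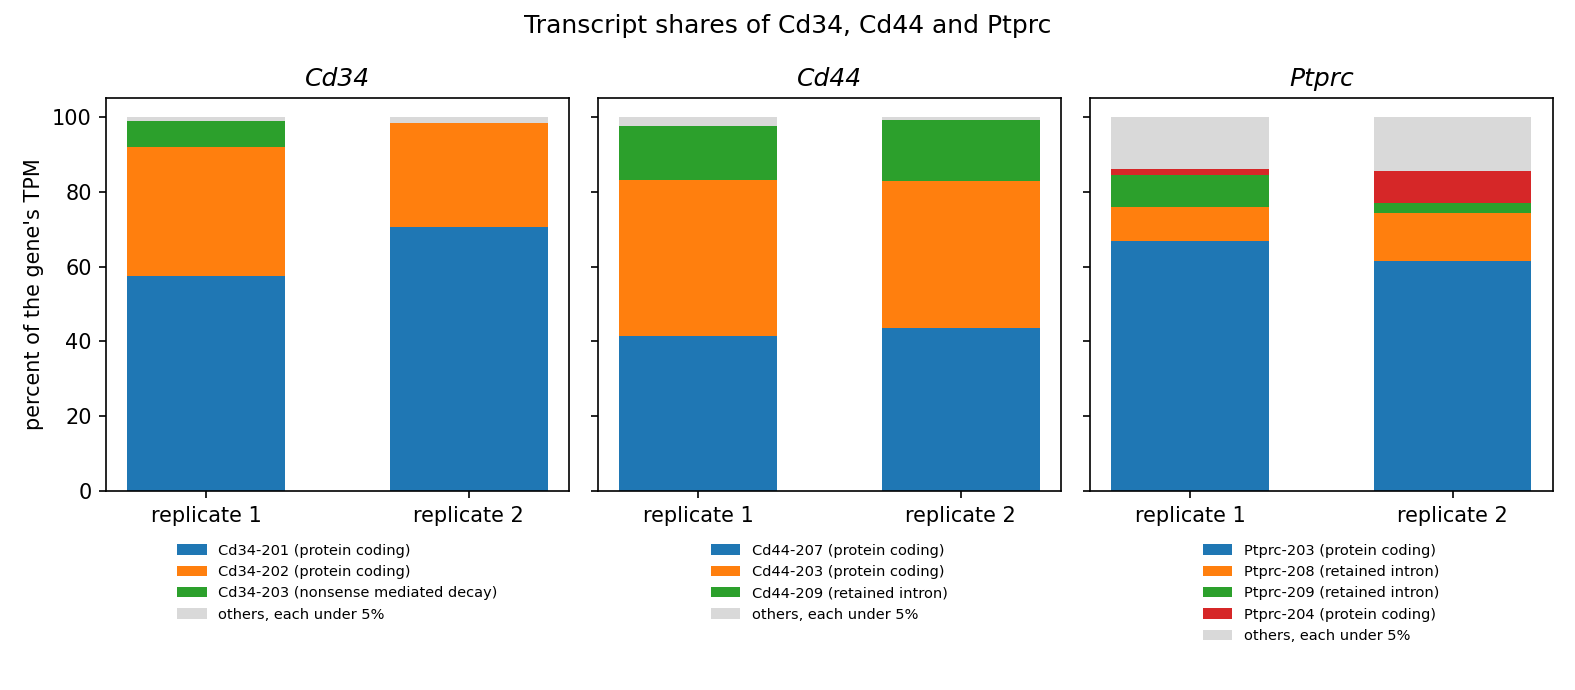
Share of the TPM of each gene (y axis, percent) held by each transcript in replicates 1 and 2 for Cd34, Cd44 and Ptprc, with transcripts under 5% in both libraries pooled in grey. Cd34-201 leads at 57.5% and 70.5%, Ptprc-203 at 66.8% and 61.6%, and the lowest 2 segments of Cd44 are Cd44-207, at 41.4% and 43.5%, and Cd44-203, at 41.8% and 39.3%.

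The other 6 members gave little room for splicing. Selplg, Cd24a and Cd53 have 1 annotated transcript each in the tables. Cd48-202 held 99.9% and 100% of Cd48, and Spn-201 held 98.5% and 98.0% of Spn. Cd164, named for its transcripts after its values were seen, was the exception. Its long Cd164-201 (2922 nt) held 54.0% in replicate 1 and 87.7% in replicate 2, and the short Cd164-204 (692 nt) 38.7% and 5.39%. The effective length of the gene in the tables was accordingly 1761 nt in replicate 1 and 2462 nt in replicate 2. The log2 CPM ratio of Cd164 was thus 0.20, while its TPM in replicate 2 was 0.978 times that in replicate 1. Cd164-204 drew 1168 and 115 expected counts, beside 8688 and 10554 for Cd164-201. Whether its share reflects splicing or the assignment of reads to a short transcript was not tested.

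Genes that build, bind, cut or anchor these proteins were read from 11 lists of 138 genes, of which 137 were matched. At or above 1 TPM in both libraries were 94, or 68.6%, against 40.8% of nuclear protein-coding genes. These lists were chosen for blood cells and are no random sample. Of the 89 with a mean of at least 10 CPM, 0 were over 2-fold apart between the libraries, against 1.21% of all kept genes at that level.

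Of the enzymes that build mucin-type sugars, 19 of 27 were at or above 1 TPM in both libraries, against 40.8% of nuclear protein-coding genes. That share is also the background for the anchor and protease genes below. Galnt1, which attaches the first sugar to serine or threonine, was at 33.8 TPM in replicate 1 and 44.9 in replicate 2. C1galt1c1, the chaperone of the enzyme that adds the second, was at 19.1 and 26.4 TPM, and Nans, a sialic acid synthase, at 17.0 and 22.8 TPM. For the GPI anchor, which holds CD24 and CD48, 12 of 14 genes reached that level, led by Pigk at 11.1 and 15.8 TPM, Pgap2 at 9.58 and 11.1 TPM and Pigu at 8.67 and 10.4 TPM. Of the 8 proteases that shed or cleave surface proteins 6 did, among them the protease subunit gene Psenen (39.1 and 40.5 TPM) and the sheddase gene Adam17 (9.20 and 12.9 TPM).

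Of other sialomucin and mucin-type genes 3 of 10 were at or above 1 TPM in both libraries, near the 40.8% of nuclear protein-coding genes. Cd52, the smallest of them, was at 50.9 and 77.7 TPM, Muc13 at 11.9 and 12.5 TPM and Cd68, a lysosomal protein of macrophages, at 9.41 and 6.36 TPM. The vessel-wall selectin ligand genes Glycam1 and Madcam1 and the CD34 relative Podxl2 were at 0 counts in both. Cd34 is also a gene of endothelium, of which 1 of 7 markers reached 1 TPM in both libraries. The list summed to 10.4 and 13.5 TPM, of which Pecam1, shared with myeloid cells, made up 9.16 and 10.8. Cdh5, a defining gene of endothelium, was at 0 counts in both, but Tie1 had 480 and 458 counts and Tek 40 and 112. At 1 rescaled TPM in both libraries 2 of the 7 markers passed, Pecam1 and Tie1 (4.46 and 4.64 rescaled TPM). The part of endothelial cells in the level of Cd34 was not tested.

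Among partners of the members, 5 of 12 reached 1 TPM in both libraries, near the 40.8% of nuclear protein-coding genes. Lgals1, a galectin that binds CD43 and CD45, was at 195 and 175 TPM, and Cxcr4, a chemokine receptor gene, at 35.1 and 46.1 TPM. The hyaluronan synthase genes Has1 and Has2 and the sialic acid receptor gene Siglec1 were at 0 counts. Of the hyaluronan and CD44 list 4 of 10 genes reached 1 TPM in both, also near that share. They were led by Itga4 (15.8 and 20.0 TPM), Hmmr (14.0 and 20.2 TPM) and Cemip2 (4.12 and 5.30 TPM), while Lyve1 was at 0. All 7 linkers of cytoplasmic tails reached 1 TPM in both, led by Rdx (34.4 and 49.9 TPM), Sdcbp (32.7 and 46.2 TPM) and Ezr (19.6 and 25.9 TPM). Rdx and Ezr encode radixin and ezrin, which tie CD43, CD44 and PSGL-1 to actin.

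Around CD45, 12 of 14 genes of substrates, partners and related phosphatases reached 1 TPM in both libraries, against 40.8% of nuclear protein-coding genes. Ptpn6, the phosphatase SHP-1, was at 72.4 and 76.4 TPM, Skap2 at 33.7 and 35.8 TPM and the Src-family kinase gene Lyn at 9.36 and 15.4 TPM. Of 11 tetraspanin genes other than Cd53, 10 reached 1 TPM in both, beside the same 40.8%. The highest were Cd81 (39.1 and 37.2 TPM), Cd63 (37.3 and 34.8 TPM) and Tspan32 (19.7 and 19.1 TPM). Cd53, at 42.7 and 76.2 TPM, was above each of these in both libraries. Of 15 genes of splicing regulators studied for Ptprc and Cd44, 13 reached 10 TPM in both libraries, against 14.3% of nuclear protein-coding genes. They were led by Hnrnpa1 (182 and 283 TPM), Srsf3 (157 and 201 TPM) and Sfpq (114 and 157 TPM). Esrp1 and Esrp2, the epithelial regulators that promote variable exons of Cd44, were at 0 counts in both.

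Cd48 lies in the cluster of SLAM family genes on chromosome 1, and its protein is used with CD150 (Slamf1) to separate progenitors from stem cells. Within 1000 kb lie 8 further genes of the family, of which 3 were at or above 1 TPM in both libraries. That is near the 40.8% of nuclear protein-coding genes. Cd84 was at 12.8 and 18.0 TPM, Ly9 at 4.37 and 7.06 TPM and Cd244a, the receptor of CD48, at 1.11 and 1.88 TPM. Cd48 was above all of them, at 27.1 and 40.0 TPM. Slamf1, 90.5 kb from Cd48 between midpoints, had 0 counts in replicate 1 and 3 in replicate 2, where Cd48 had 3940 and 4353. Cd2, the other partner of CD48, lies on chromosome 3 and was at 0 counts in both.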

How the data were processed

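Per the labels, total RNA of granulocyte-monocyte progenitors was depleted of ribosomal RNA and made into libraries from 100 ng with a ScriptSeq low-input kit. The authors deposited expected counts, TPM and FPKM per gene and transcript, the percent each transcript makes up of its gene, and coverage-type TPM signal bounds of credibility intervals, which are not printed. The deposited metadata name assembly mm10 and GENCODE M4, with no aligner or quantifier named in the sources used here. Names, exons and sequences came from GENCODE M21, also on mm10, matched on unversioned identifiers (42462 of 43346 genes matched). Member transcripts have the same length in both, except Cd24a-201 and Selplg-201. Counts were rounded and scaled with edgeR 4.0.16 in R 4.3.3 on 12855 genes kept by filterByExpr, with a prior count of 2 for log2 CPM. The script was tested on simulated data. GC content is that of the leading M21 transcript.

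Depth was 49473848 and 44260902 expected counts. Named are the 9 members, transcripts of Cd34, Cd44 and Ptprc at or above 5%, and per list the 3 genes of highest mean TPM, genes at 0 counts and genes over 2-fold apart. Some list genes are not reported here by name. Other transcripts, markers and SLAM genes named were chosen after their values were seen. The members and lists were chosen with earlier results of these data known. Alternatives were other thresholds, pseudocounts, units, scalings, filters, transcript sets and each library alone. Promoters and protein sequences were not used here.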

Additional observations from a re-analysis of the deposited data

How the results depend on the processing

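No paired analysis was possible because the series has 1 group. With both libraries kept, 27 recomputed values that answer a comparison stayed within 1 SD of the 2 libraries, within 1.5 times for counts or within 0.25 for log2 ratios, and 8 moved. The median log2 level of the members was 5.40 and became 5.36 with a pseudocount of 0.1, 6.81 on FPKM and 7.63 on rescaled TPM. At a threshold of 5 TPM, 61 companion genes passed in place of 94. Cd44-207 held 59.4% of the expected counts of Cd44, which are not divided by length, and 50.2% of the TPM of its protein-coding transcripts. For Ptprc-203 these were 72.9% and 90.8%. A single library cannot fall outside 1 SD of a pair, so values from each library alone are given as ranges. With each library alone, the median level was 5.38 to 5.41, Cd34-201 held 57.5% to 70.5%, Cd44-207 41.4% to 43.5% and Ptprc-203 61.6% to 66.8%, and 96 to 99 companion genes passed. Of the values of single genes or exons with both libraries kept, 101 stayed and 22 moved, 18 of them levels on FPKM or rescaled TPM. The log2 count ratio of Cd164, 0.20, was -0.29 on rescaled TPM. The GC and exon-cover alternatives were chosen after seeing the data. The effect of depth was not tested.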
